A study of Mus musculus with 9 samples.

Results

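Expression of 10 genes of arginine and polyamine metabolism was described in primary macrophages of the mouse, immune cells that engulf microbes and dead cells, cultured at different oxygen levels. The genes were Arg1, Arg2, Nos2, Ass1, Slc7a2, Odc1, Srm, Sms, Sat1 and Azin1, out of 34866 genes listed. Arg1 was selected on its measured values, since it had the highest fold change of chronic hypoxia in an earlier look at these libraries, so its values are given as a description with no test. The other 9 were chosen by name as its pathway partners, with earlier results of these data known. Messenger RNA was sequenced in 9 libraries in 3 groups of 3. The standard group was kept in standard oxygen for 7 days, the acute group went from standard oxygen into 1% oxygen for 3 hours, and the chronic group spent 7 days in 1% oxygen. All groups were grown in alpha-MEM supplemented with serum and with supernatant of L929, a fibroblast line that secretes the macrophage growth factor CSF1. The study's design text calls the samples of a group biological replicates, and the labels used here name no strain, genotype, age or tissue of origin.

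Arginine stands at a branch point in macrophages. Arginase, in a cytosolic form (Arg1) and a mitochondrial form (Arg2), splits it into urea and ornithine, and inducible nitric oxide synthase (Nos2) turns it into nitric oxide and citrulline. Slc7a2 carries arginine into the cell, and Ass1 catalyses the step of arginine synthesis that recycles citrulline. Ornithine decarboxylase (Odc1) makes putrescine from ornithine. Spermidine synthase (Srm) and spermine synthase (Sms) extend putrescine into the longer polyamines. Sat1 acetylates polyamines for export or breakdown, and Azin1 binds antizyme and so protects ornithine decarboxylase from degradation. High Arg1 is a textbook trait of macrophages treated with IL-4, and high Nos2 of macrophages treated with bacterial lipopolysaccharide or interferon gamma.

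The upstream sequences of Odc1 and Ass1 are shown because these were the members other than Arg1 whose groups separated without overlap in a comparison below. Both come from RefSeq (GRCm38.p6) and end at the base before the annotated gene start. Odc1 is shown on the plus strand at chr12:17544623-17544793 (171 bases) and Ass1 on the plus strand at chr2:31470020-31470206 (187 bases). Capitals mark each match to ACGTG or GCGTG, the core letters that hypoxia-inducible factors are known to bind, read on either strand, so that a match on the minus strand reads CACGT or CACGC.
Odc1: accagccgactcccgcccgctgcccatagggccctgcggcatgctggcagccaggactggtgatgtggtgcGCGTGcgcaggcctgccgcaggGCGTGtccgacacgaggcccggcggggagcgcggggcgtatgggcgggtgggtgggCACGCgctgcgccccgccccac
Ass1: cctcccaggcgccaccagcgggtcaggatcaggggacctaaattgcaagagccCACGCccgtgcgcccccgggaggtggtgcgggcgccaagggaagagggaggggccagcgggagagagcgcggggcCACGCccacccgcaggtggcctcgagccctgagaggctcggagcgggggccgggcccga
The Odc1 stretch held 3 matches, 2 on the plus and 1 on the minus strand, and the Ass1 stretch held 2, both on the minus strand. Windows of 250 bases before a start were at hand for 4 members (Ass1, Odc1, Sms and Sat1), and Sms had a second start, which made 5 windows. Of these, 4 held the core, and the Sat1 window did not. Across 32851 such windows of all genes 38.6% held it on either strand, and 6.02% held CACGTG, which contains it. A match describes the letters of a window and says nothing of binding.

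In the GENCODE M21 annotation of GRCm38 the members lie apart: Arg1 at chr10:24915221-24927484 (minus strand), Arg2 at chr12:79130777-79156301 (plus), Nos2 at chr11:78920787-78960254 (plus), Ass1 at chr2:31470207-31520672 (plus) and Slc7a2 at chr8:40862396-40922308 (plus). Odc1 lies at chr12:17544794-17551505 (plus), Srm at chr4:148591503-148594993 (plus), Sms at chrX:157443855-157492287 (minus), Sat1 at chrX:155213132-155216449 (minus) and Azin1 at chr15:38487427-38519266 (minus). All 10 are protein-coding. Values below sum reads over a whole gene, so they do not separate exons or isoforms. Sequence shared with other listed genes makes some values uncertain. Of the 75-base stretches of the longest coding transcript, 46.9% in Ass1, 30.5% in Odc1, 28.2% in Sms, 15.6% in Arg2 and 2.67% in Sat1 also occur in another listed gene, and none in Arg1, Nos2, Slc7a2, Srm or Azin1. The gene that shares with Ass1 was listed at 0 in all libraries, and those that share with Odc1 reached at most 3.63 TPM. The pseudogene Sms-ps, at 9.51 to 30.2 TPM, was near the level of Sms itself.

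Levels are in TPM, a unit of relative transcript abundance that corrects a gene's reads for its length and scales each library to a total of 1000000. TPM keeps no read counts, so the depth is unknown and the spread over libraries is the only error. From 10724 to 11208 genes had at least 1 TPM per library. Of 8 macrophage markers, 7 were above 10 TPM in all libraries. All markers of mast cells, eosinophils, dendritic cells, lymphocytes and fibroblasts were under 1 TPM. Of the 7 neutrophil markers, 5 were under 1 TPM in all libraries, Retnlg among them at 0, but S100a8 reached 895 to 1593 TPM in standard oxygen, 937 to 1906 in acute and 258 to 582 in chronic hypoxia. S100a9, which encodes the partner protein of S100a8, was listed at 0 in 8 of 9 libraries, and the cause of this gap was not tested. S100a8 made up nearly all of that list's sum, which was 899.9 to 1595, 941 to 1908 and 266.5 to 584.3 TPM in the same order.

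Libraries of different groups share digits in their descriptions, whose meaning is not given. These are called codes X, Y and Z here, with 1 library of each code in each group. The deviations of libraries from their group means went together within a code, so a fit with the code as a block is given beside the fit without one wherever it changes a call. Differences were tested with limma, a linear model fitted over all genes, and a gene is said to be called where its p after Benjamini-Hochberg adjustment over all genes was under 0.05. Rescaling means median-of-ratios scaling, which sets the typical gene equal between libraries. The code Z libraries stood apart in every group. Fits without code Z keep only 1 library each of codes X and Y in a group, so they rest on fewer libraries than the fits over all codes. The code Z libraries held Mertk, a receptor for dying cells, at 2.21 to 3.37 TPM against 21.8 to 33.3 in the other 6. Code Z was also the lowest in every group for the macrophage markers Adgre1 and Cd68. For Csf1r, Itgam, Fcgr1 and Cd14 it was the highest in standard oxygen. Lyz2 was lowest in code Z in standard oxygen and acute hypoxia only. Ctsk, an osteoclast protease, was at 33.9 to 51.0 TPM in code Z against 7.57 to 11.9. Acp5, another osteoclast marker, was 1.19, 1.56 and 1.44 TPM in code Z in standard oxygen, acute and chronic hypoxia. It lay between 0.539 and 1.92 TPM in the other 6. The osteoclast markers Calcr (0 in all) and Ocstamp (up to 0.43 TPM) stayed low. The sum of the 4 osteoclast markers was 12.5 to 35.3 TPM in standard oxygen, 12.6 to 52.9 in acute and 8.44 to 47.0 in chronic hypoxia. Of the 9 members that could be tested, code Z was the highest of the 3 libraries in all groups for 5 (Nos2, Slc7a2, Srm, Sms and Azin1) and the lowest in all groups for Odc1. Among all 11065 genes, code Z was the highest in every group for 31.4% and the lowest for 11.1%.

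Among the members Arg1 had the largest ratios between the mean of chronic hypoxia and those of the other groups. In the order of codes X, Y and Z it stood at 0.713, 0.535 and 0.582 TPM in standard oxygen, 3.48, 3.59 and 4.34 under acute hypoxia and 130.0, 140.7 and 176.5 TPM in chronic hypoxia. The groups did not overlap in any of the 3 comparisons, and the order standard, acute, chronic held within each code. The group means were 0.610 ± 0.0918, 3.80 ± 0.469 and 149 ± 24.3 TPM (SD, n = 3). The mean in acute hypoxia was 6.23 times that in standard oxygen, and the ratio within codes was 4.88, 6.71 and 7.45. Chronic hypoxia was 182, 263 and 303 times standard oxygen within codes, and 37.4, 39.2 and 40.7 times acute hypoxia. Standard levels lay under 1 TPM, so these ratios rest on low values of unknown depth. On the log2(TPM + 1) scale the difference was 1.57 ± 0.182 (SE) for acute and 6.53 ± 0.144 for chronic hypoxia against standard oxygen, and 4.96 ± 0.147 between the hypoxic groups. A pseudocount of 0.1 in place of 1 gave 2.46 for acute hypoxia and a pseudocount of 5 gave 0.65. Without the code Z libraries the 3 differences were 1.48, 6.39 and 4.91. In bulk RNA, more cells that express a gene and more RNA per cell cannot be told apart. Of the neutrophil markers above 1 TPM, S100a8, whose values are above, was lower in chronic hypoxia in all 3 codes. Csf3r, the receptor for a granulocyte growth factor, was 4.45, 5.06 and 2.13 TPM in standard oxygen, 3.73, 2.77 and 1.70 in acute and 8.63, 8.09 and 1.89 in chronic hypoxia (codes X, Y, Z). Chronic hypoxia thus had more Csf3r than the standard group in codes X and Y and less in Z. The part of either gene in the Arg1 difference was not tested.

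**Figure D1:**
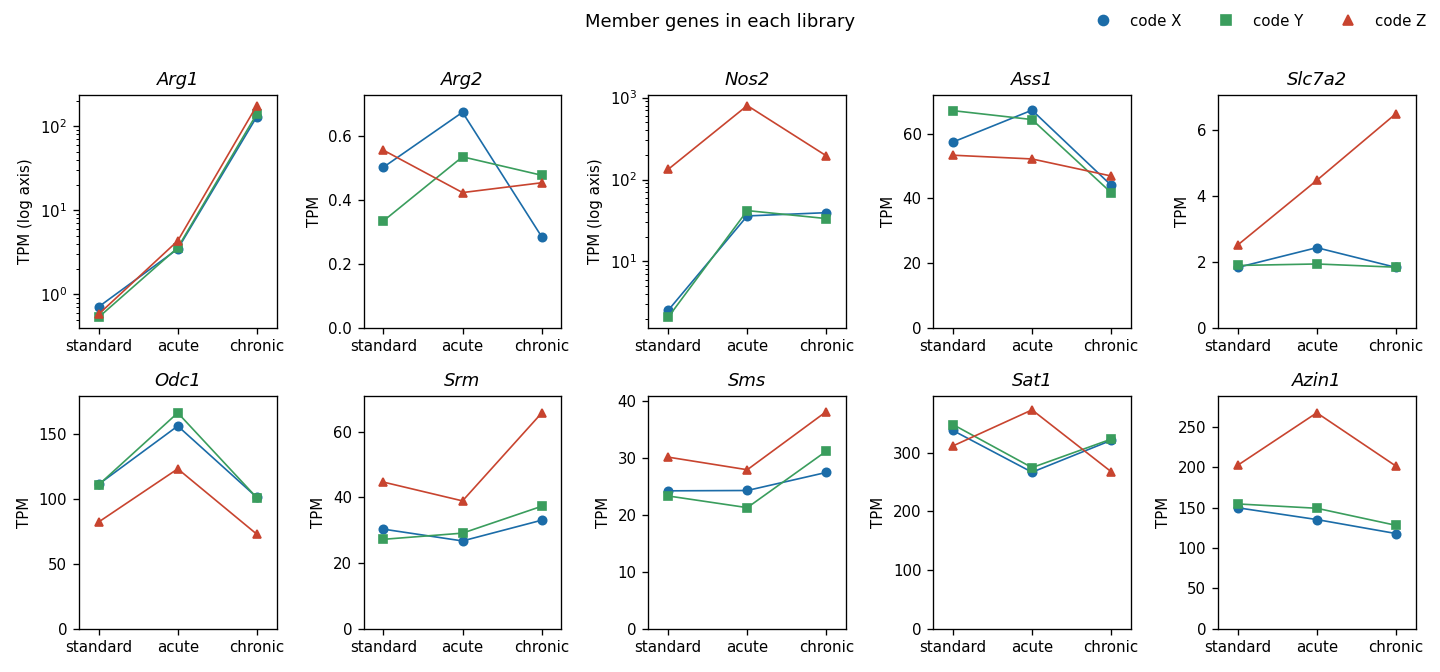
TPM of the 10 genes in each of the 9 libraries, by oxygen group, with 1 line and marker per code (log axis for Arg1 and Nos2, linear axes from 0 for the others). Arg1 climbs from under 1 to between 130.0 and 176.5 TPM in all codes, Nos2 is highest in code Z in every group, and Odc1 peaks in acute hypoxia in all codes.

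Arg2, the mitochondrial arginase, stayed between 0.286 and 0.675 TPM in all 9 libraries, and its groups overlapped in every comparison. Its mean never reached 1 TPM, so it was left out of the test. In the annotation 28.1% of its exonic bases overlap genes on the other strand, among them Vti1b at 71.6 to 83.5 TPM, and whether reads were counted by strand is not given in the sources used here. Arg1 made up 57.1 ± 5.35% of the summed arginase TPM in standard oxygen, 87.3 ± 3.69% in acute and 99.7 ± 0.0609% in chronic hypoxia (SD, n = 3).

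Nos2 was higher in both hypoxic groups than in standard oxygen in every code, and code Z stood far above the other codes in each group. In the order X, Y, Z it was 2.53, 2.08 and 133 TPM in standard oxygen, 35.9, 41.8 and 800 under acute hypoxia, and 39.4, 33.4 and 195 TPM in chronic hypoxia. The code Z library was 57.7 times the mean of the others in standard oxygen, 20.6 times in acute and 5.35 times in chronic hypoxia, so the groups overlapped. Within codes, acute hypoxia was 14.2, 20.0 and 6.01 times standard oxygen. Chronic hypoxia was 15.5 and 16.0 times standard oxygen in codes X and Y but 1.46 times in code Z. The code Z libraries also held less Mertk and more Ctsk, while other markers of both lists did not all follow, as given above. The part of these differences in the Nos2 values was not tested. Without code Z, only codes X and Y were left in each group. Nos2 then rose by 3.59 in acute and 3.50 in chronic hypoxia against standard oxygen (log2, limma adjusted p = 0.0018 and 0.00126).

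In the fit over all 3 libraries a group, the log2 change of Nos2 in acute hypoxia was 3.25 ± 1.80 (SE), with a 95% interval of -1.06 to 7.56, and the limma p after Benjamini-Hochberg adjustment was 0.858. The code block gave an SE of 0.238 and an adjusted p of 0.0166, and the gene was called higher. In chronic hypoxia against standard oxygen the change was 2.51 ± 1.53 (SE), with an adjusted p of 0.374 without and 0.0563 with the code block. Leaving out standard replicate 2, the code Z library of that group, gave 4.29 with an adjusted p of 0.0442 and no block. The chronic group kept its code Z library in that fit, so code and oxygen cannot be told apart there. Within codes X, Y and Z the log2 difference was 3.51, 3.48 and 0.544. Chronic and acute hypoxia differed by -0.74 ± 1.29 (SE), with adjusted p-values of 0.786 and 0.256. Within codes that ratio was 1.10 and 0.80 in X and Y and 0.243 in Z.

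The ratio of Arg1 to Nos2 turned over in chronic hypoxia. It was 0.281, 0.257 and 0.00437 in standard oxygen for codes X, Y and Z, and 0.0967, 0.0860 and 0.00542 in acute hypoxia. In chronic hypoxia it was 3.30, 4.21 and 0.906. Arg1 was thus below Nos2 in all 6 libraries of the other groups and above it in 2 of 3 chronic libraries, with code Z just under equality. The ratio holds Arg1 and is a description with no test.

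**Figure D2:**
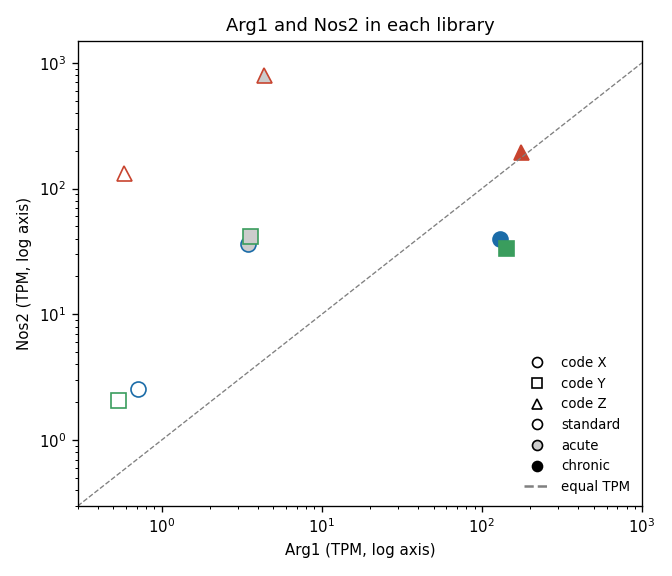
Nos2 against Arg1 in TPM, both on log axes, 1 point per library, with shape for the code, fill for the oxygen group and a dashed line of equal TPM. The chronic libraries lie at the right, X and Y below the line (ratios of Arg1 to Nos2 of 3.30 and 4.21) and Z just above it (0.906), and code Z is the upper point of each group.

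Ass1 was lower in chronic hypoxia than in either other group in all codes. Its levels were 57.4, 67.1 and 53.3 TPM in standard oxygen, 67.2, 64.3 and 52.2 under acute hypoxia, and 44.1, 41.8 and 46.9 TPM in chronic hypoxia (codes X, Y, Z). The 3 chronic libraries lay below all 6 others. The log2 change against standard oxygen was -0.41 ± 0.117 (SE; 95% interval -0.69 to -0.13), and the limma adjusted p was 0.115, or 0.0648 with the code block, so no call was made in either fit. Against acute hypoxia it was -0.45 ± 0.125 (SE), with adjusted p-values of 0.126 and 0.0562. The fits that did call it lower were those with the code block and median-of-ratios rescaling (-0.59 and -0.61, adjusted p = 0.0436 and 0.0403), with the code block over all 9 libraries (adjusted p = 0.0377 and 0.0310), and without code Z (-0.52 and -0.60, adjusted p = 0.028 and 0.0122). Acute hypoxia differed from standard oxygen by 0.04 ± 0.138 (SE; 95% interval -0.29 to 0.37), and the pairs went in both directions.

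Slc7a2, the arginine carrier, stayed low outside code Z. It lay between 1.83 and 2.43 TPM in the 6 libraries of codes X and Y, and at 2.51, 4.48 and 6.50 TPM in code Z in standard oxygen, acute and chronic hypoxia. The ratio of chronic hypoxia to standard oxygen was 1.00 and 0.972 in X and Y and 2.58 in Z. The change in the 3 comparisons was 0.31 ± 0.271, 0.36 ± 0.404 and 0.04 ± 0.446 (log2, SE), and their adjusted p-values from limma were 0.978, 0.639 and 0.968. It was not called with the code block either. Without code Z the change from standard oxygen to chronic hypoxia was -0.01.

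Odc1, the entry enzyme of polyamine synthesis, was highest in acute hypoxia. Its levels were 111.2, 110.9 and 82.2 TPM in standard oxygen, 156, 166 and 123 under acute hypoxia, and 101.2, 100.9 and 72.7 TPM in chronic hypoxia (codes X, Y, Z). All acute libraries lay above all others, and the code Z library was the lowest of each group. Within codes, acute hypoxia was 1.40, 1.50 and 1.50 times standard oxygen, and chronic hypoxia was 0.648, 0.607 and 0.591 times acute hypoxia. The log2 change in acute hypoxia was 0.55 ± 0.169 (SE), and limma without a block gave an adjusted p of 0.505. The code block gave an SE of 0.0591 and an adjusted p of 0.0443, a call that was lost when the block was combined with rescaling (0.53, adjusted p = 0.0646) and held without code Z (0.53, adjusted p = 0.0279).

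From acute to chronic hypoxia Odc1 differed by -0.70 ± 0.178 (log2, SE), and limma without a block gave an adjusted p of 0.110. With the code block it fell by 0.70 on the log2 scale (SE 0.068, adjusted p = 0.0107). It remained called with rescaling added to the block (-0.85, adjusted p = 0.0093) and without code Z (-0.67, adjusted p = 0.0083). Against standard oxygen, chronic hypoxia was 0.910, 0.910 and 0.885 times as high within codes, a change of -0.15 ± 0.184 (SE) with adjusted p-values of 0.671 and 0.149, and the groups overlapped. With the block and rescaling that change was -0.33 (adjusted p = 0.0372).

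Azin1, the antizyme inhibitor, stood at 149.9, 154.7 and 202.7 TPM in standard oxygen, 135, 149 and 268 under acute hypoxia, and 118, 128 and 202 TPM in chronic hypoxia (codes X, Y, Z). It was highest in code Z in each group, and all groups overlapped. In chronic hypoxia it was lower in 3 of 3 codes against both other groups, with ratios of 0.787, 0.829 and 0.995 against standard oxygen and 0.872, 0.858 and 0.753 against acute hypoxia. The changes were -0.21 ± 0.229 and -0.27 ± 0.313 (log2, SE), and their adjusted p-values from limma were 0.631 and 0.659 without and 0.160 and 0.0662 with the code block. Called values came from the block with rescaling against acute hypoxia (-0.43, adjusted p = 0.0325) and without code Z against standard oxygen (-0.31, adjusted p = 0.0472). The ratio of Odc1 to Azin1 was 0.742, 0.717 and 0.405 in standard oxygen, 1.15, 1.11 and 0.46 in acute hypoxia, and 0.858, 0.787 and 0.361 in chronic hypoxia, highest in acute hypoxia in every code. Against the antizyme gene Oaz1, which lay between 751 and 915 TPM in all libraries, Odc1 also had its highest ratio in acute hypoxia in every code (0.196, 0.206 and 0.143).

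The synthases that use putrescine and spermidine had higher levels in chronic hypoxia but passed the threshold neither without a block nor with the code block. Srm was 30.3, 27.2 and 44.7 TPM in standard oxygen, 26.7, 29.1 and 38.9 under acute hypoxia, and 33.0, 37.3 and 65.7 TPM in chronic hypoxia. Sms was 24.3, 23.4 and 30.2 TPM, then 24.3, 21.3 and 28.0 TPM, then 27.5, 31.3 and 38.2 TPM in the same order. Both were higher in chronic hypoxia in 3 of 3 codes against either group, and both were highest in code Z, so the groups overlapped. Against standard oxygen the differences were 0.37 ± 0.298 for Srm and 0.30 ± 0.161 for Sms (log2, SE), and their adjusted p-values from limma were 0.502 and 0.316 without and 0.0717 and 0.0629 with the code block. Against acute hypoxia the changes were 0.46 ± 0.277 and 0.38 ± 0.160, with adjusted p-values of 0.393 and 0.242 without and 0.0508 and 0.0609 with the block. With the block and rescaling the changes were 0.19 and 0.13 against standard oxygen (adjusted p = 0.288 and 0.343) and 0.31 and 0.23 against acute hypoxia (adjusted p = 0.148 and 0.187). With the block over all 9 libraries both were called in both comparisons (adjusted p = 0.0460 and 0.0392 against standard oxygen, 0.0263 and 0.0220 against acute hypoxia). Acute hypoxia and standard oxygen differed by -0.09 ± 0.222 for Srm and -0.08 ± 0.147 for Sms.

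Sat1, the acetyltransferase that starts polyamine breakdown, had the highest level of the members in 8 of the 9 libraries. It stood at 338, 348 and 312 TPM in standard oxygen, 267, 275 and 373 under acute hypoxia, and 321, 323 and 268 TPM in chronic hypoxia (codes X, Y, Z). Codes X and Y were 0.789 times as high in acute hypoxia as in standard oxygen, and code Z 1.20 times. The changes were -0.14 ± 0.146, -0.13 ± 0.113 and 0.01 ± 0.162 (log2, SE) for acute and chronic hypoxia against standard oxygen and for chronic against acute hypoxia. Their limma adjusted p-values were 0.997, 0.527 and 0.984, and none passed with the code block. With the block and rescaling the change from standard oxygen to chronic hypoxia was -0.31 (adjusted p = 0.0463).

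**Figure D3:**
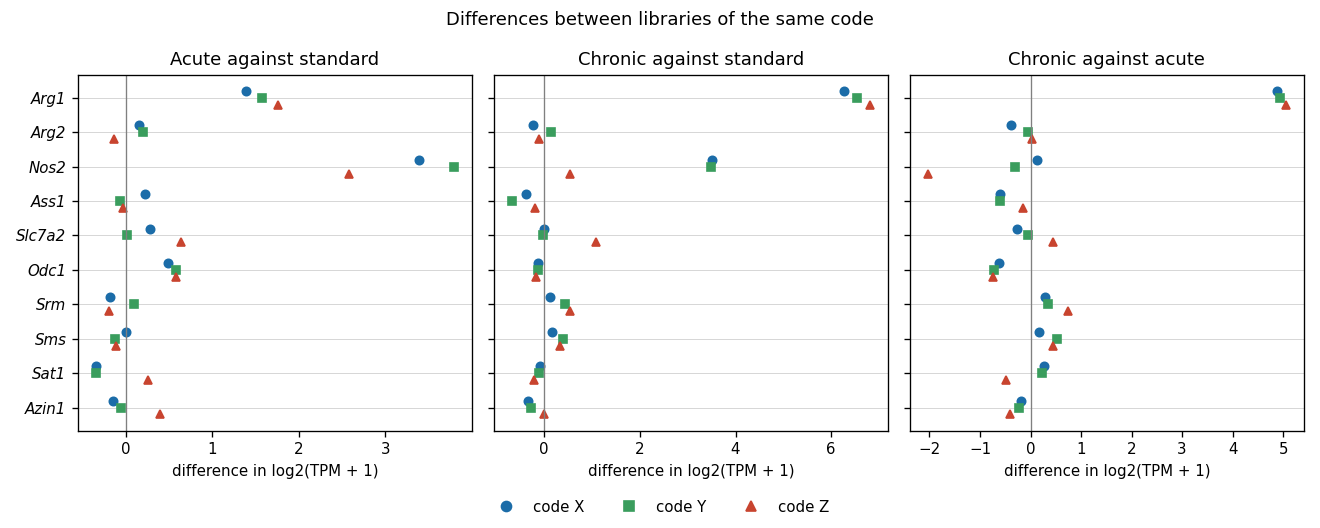
Difference in log2(TPM + 1) between libraries of the same code for each of the 10 genes, in 3 panels for the 3 comparisons, with 1 marker per code. Odc1 lies above 0 in all codes in acute against standard oxygen and below 0 in all codes in chronic against acute hypoxia, while Slc7a2 and Sat1 have code Z apart from X and Y.

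TPM corrects for length, so the members' levels can be ranked roughly. It does not correct for the sequence that Ass1, Odc1, Sms, Arg2 and Sat1 share with other listed genes, so their places are less certain. In standard oxygen the means ran from Sat1 (332 ± 18.8 TPM) through Azin1 (169 ± 29.2), Odc1 (101.4 ± 16.7) and Ass1 (59.3 ± 7.07) to Srm (34.1 ± 9.31), Sms (25.9 ± 3.72), Slc7a2 (2.08 ± 0.377), Arg1 (0.610 ± 0.0918) and Arg2 (0.465 ± 0.116), each with the SD over 3 libraries. The libraries of Srm and Sms overlapped, as did those of Arg1 and Arg2, and Nos2, with libraries from 2.08 to 133 TPM, had no settled place. In chronic hypoxia Arg1 (149 ± 24.3 TPM) stood level with Azin1 (149 ± 45.7), their libraries overlapped, and only Sat1 had a mean above them.

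Of the 9 members other than Arg1, 8 reached the minimum mean of 1 TPM and were tested. Without a block limma called 0 of the 8 at an adjusted p under 0.05 in each comparison, with 1, 1 and 2 at an unadjusted p under 0.05 in acute against standard oxygen, chronic hypoxia against standard oxygen and chronic against acute hypoxia. The shares of all genes called were 0.0273%, 2.69% and 0.695% in that order. With the code block, 2 of 8 were called in acute hypoxia (Nos2 and Odc1, both higher), 0 of 8 in chronic hypoxia against standard oxygen (4 at an unadjusted p under 0.05) and 1 of 8 in chronic against acute hypoxia (Odc1, lower). The shares of all genes called with the block were 0.71%, 18.4% and 15.5%. The count in the chronic comparisons was thus no larger than the background share. Apart from Arg1, groups did not overlap for 1 of the 8 tested members in acute hypoxia (Odc1), against 12.5% of all genes. They did not overlap for 1 of 8 (Ass1) in chronic hypoxia against standard oxygen, where the share of all genes was 29.6%, and for 2 of 8 (Ass1 and Odc1) in chronic against acute hypoxia, where it was 27.8%. Both comparisons against standard oxygen share its libraries and are not independent.

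The median log2 change over the 8 tested members other than Arg1 was 0.06 in acute hypoxia, 0.09 in chronic hypoxia against standard oxygen and -0.13 in chronic against acute hypoxia. Over all genes tested it was 0.01, 0.16 and 0.14. Median-of-ratios rescaling brought the medians of all genes to -0.01, 0.00 and 0.00, so a change in the chronic comparisons reads about 0.16 and 0.14 lower against the typical gene than in TPM. After that rescaling and with the code block, 3 of 8 members were called in chronic hypoxia against standard oxygen (Ass1, Odc1 and Sat1) and 3 in chronic against acute hypoxia (Ass1, Odc1 and Azin1), all lower, and 1 in acute hypoxia (Nos2, higher). The shares of all genes called in that fit were 11.5%, 9.79% and 0.492% in the same order. With the code block over all 9 libraries they were 1.84%, 26.3% and 22.1% for acute against standard oxygen, chronic hypoxia against standard oxygen and chronic against acute hypoxia, and without code Z 2.95%, 21.1% and 16.3%.

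Beyond the members, 51 further genes of arginine, ornithine and polyamine metabolism were listed, of which 38, 37 and 37 were tested in acute hypoxia, chronic hypoxia against standard oxygen and chronic against acute hypoxia. Agmat, Ddah1 and Otc were listed at 0 in all libraries. In acute hypoxia 1 of 38 was called with the code block, higher, beside 0.71% of all genes. In chronic hypoxia against standard oxygen 10 of 37 were called, 8 higher and 2 lower, beside 18.4% of all genes, and in chronic against acute hypoxia 4 of 37, 3 higher and 1 lower, beside 15.5%. With the block and rescaling these became 1 higher, then 2 higher and 2 lower, then 0 higher and 3 lower, beside 0.492%, 11.5% and 9.79% of all genes, so most of the higher calls in the chronic comparisons depended on the scaling. Without a block, on the 6 libraries of each comparison, limma called 0, 1 and 0 of them, with 3, 9 and 6 at an unadjusted p under 0.05. With all 9 libraries in 1 unblocked fit it called 0, 5 and 1, beside 25, 764 and 415 of all 11065 genes. The medians of the list were 0.02, 0.15 and 0.07, beside 0.01, 0.16 and 0.14 over all genes.

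Smox, spermine oxidase, which turns spermine back into spermidine, had the highest log2 change among the tested genes of that list in both comparisons against standard oxygen, and differed by -0.01 between the hypoxic groups. It stood at 20.9, 23.4 and 40.0 TPM in standard oxygen, 50.3, 61.3 and 91.9 under acute hypoxia, and 54.1, 61.2 and 83.4 TPM in chronic hypoxia (codes X, Y, Z). Both hypoxic groups lay above standard oxygen without overlap, and they overlapped each other. Within codes acute hypoxia was 2.41, 2.62 and 2.30 times standard oxygen and chronic hypoxia 2.59, 2.61 and 2.09 times. The log2 change was 1.25 in acute hypoxia, and the code block took its SE from 0.304 to 0.0724 and its limma adjusted p from 0.304 to 0.0103. In chronic hypoxia it was 1.24, and the block took the SE from 0.273 to 0.0915 and the adjusted p from 0.0696 to 0.0071. Both calls held with the block and rescaling (1.23 and 1.06, adjusted p = 0.0135 and 0.0099) and without code Z (1.29 and 1.34, adjusted p = 0.0172 and 0.0031).

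Tetrahydrobiopterin is the cofactor that nitric oxide synthases need. Of its 4 tested genes, 3 were called higher in chronic hypoxia against standard oxygen with the code block, where 18.4% of all genes were called: Spr (0.58, limma adjusted p = 0.0164), which makes it, Pts (0.46, 0.0322), an earlier enzyme of the route, and Qdpr (0.42, 0.0207), which regenerates it. Spr was also the 1 gene of the list called in the unblocked limma fit on the 6 libraries of that comparison, in TPM as deposited, with an adjusted p of 0.0425. It stood at 19.0, 22.2 and 20.8 TPM in standard oxygen and 31.0, 32.3 and 30.8 TPM in chronic hypoxia. That call was lost with the title number as a block, with no trend in the fit, and without standard replicate 1, standard replicate 3, chronic replicate 1 or chronic replicate 2, each time leaving 0 genes of the list called. It was lost as well with rescaling alone (0.41, adjusted p = 0.114), with quantile normalization and with no filter on low values. With no filter, the 1 gene of the list that was called was lower, beside 120 of 19540 genes called in either direction. After rescaling with the block Spr was still called (0.41, adjusted p = 0.0394), and Pts (0.28, 0.115) and Qdpr (0.24, 0.0732) were not. Against acute hypoxia Spr (0.42, adjusted p = 0.0480) and Qdpr (0.39, 0.0456) were called with the block, but not after rescaling (0.160 and 0.175). Gchfr, the feedback regulator of the entry enzyme Gch1, was under the minimum mean in both chronic comparisons and was not tested there. It stood at 1.23, 1.04 and 1.68 TPM in standard oxygen, 0.551, 0.879 and 1.49 in acute and 0, 0.183 and 0 in chronic hypoxia (codes X, Y, Z). Its 3 chronic libraries lay below all 6 others. Gch1 itself, had 11.1 to 14.0 TPM in standard oxygen and 11.9 to 17.7 in chronic hypoxia and was not called.

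Among the genes that carry ornithine to proline and glutamate, Oat, ornithine aminotransferase, stood at 49.0, 47.9 and 46.9 TPM in standard oxygen and 66.9, 69.6 and 61.6 TPM in chronic hypoxia. Its change was 0.45 against standard oxygen and 0.41 against acute hypoxia, with limma adjusted p-values of 0.0212 and 0.0298 with the code block and of 0.0653 and 0.0940 after rescaling as well. Aldh4a1, which oxidises the product of proline breakdown to glutamate, went from a mean of 9.31 to one of 6.24 TPM in chronic hypoxia (-0.51, adjusted p = 0.0358 with the block and 0.0282 after rescaling; rescaling alone, without a block, gave 0.0457). It shares 43.8% of its 75-base stretches with another listed gene. Slc7a6, a subunit of an exchanger of cationic and neutral amino acids, was called lower against standard oxygen (-0.69, adjusted p = 0.0186 with the block) and against acute hypoxia (-0.47, 0.0456). Both calls held after rescaling (adjusted p = 0.0163 and 0.0327). Of the 7 genes of methionine salvage, which recycles the by-product of polyamine synthesis, 3 were called higher in chronic hypoxia against standard oxygen with the block, beside 18.4% of all genes: Mri1 (0.53, adjusted p = 0.0214), Enoph1 (0.47, 0.0266) and Mat2b (0.43, 0.0242). After rescaling their adjusted p-values were 0.0567, 0.0836 and 0.0849. The block with rescaling also gave a lower call in chronic than in acute hypoxia for Mat2a, which makes S-adenosylmethionine (-0.40, adjusted p = 0.0388), and for Aldh4a1 (-0.61, 0.0433). Neither was called there with the block alone (0.0887 and 0.0607). None of the tested genes of polyamine transport (2) or of hypusination (3), the use of spermidine to modify eIF5A, was called with the code block.

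**Figure D4:**
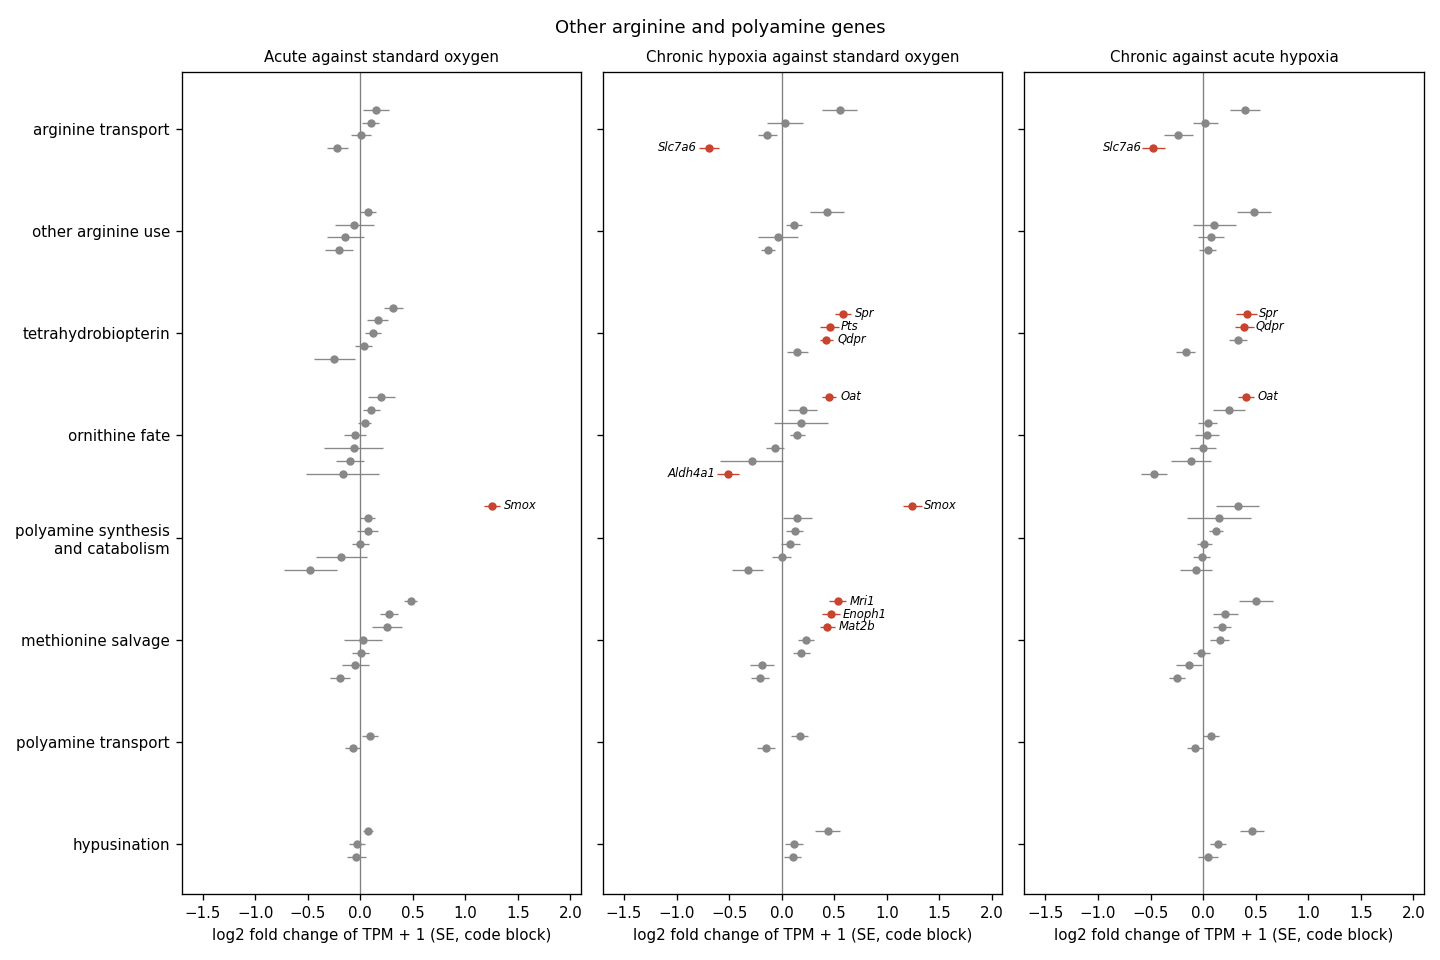
Log2 fold change of TPM + 1 with its SE from the fit with the code block, for the tested genes of 8 groups of arginine and polyamine metabolism other than the members, in 3 panels for the 3 comparisons. Red points with names had an adjusted p under 0.05, and Smox lies farthest from 0 in both comparisons against standard oxygen (1.25 and 1.24).

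Genes known to act on Arg1 or Nos2 are described next. On the 6 libraries of each comparison, limma called none of those described without a block in TPM as deposited. With the code block it called Il4ra in acute hypoxia, where 0.71% of all genes were called. In chronic hypoxia it called Il4ra, Cebpb and Hif1a against standard oxygen, beside 18.4% of all genes. Against acute hypoxia it called Il4ra and Cebpb, beside 15.5%. Il4ra, the receptor chain for IL-4 and IL-13, stood at 34.9, 44.1 and 50.5 TPM in standard oxygen, 71.0, 92.3 and 85.9 under acute hypoxia, and 49.9, 70.8 and 69.1 TPM in chronic hypoxia. With the code block it was called higher in acute (0.94, limma adjusted p = 0.0299) and chronic hypoxia (0.54, 0.0188) than in standard oxygen, and lower in chronic than in acute hypoxia (-0.40, 0.0295). These calls held with the block and rescaling (0.92, 0.36 and -0.55, adjusted p = 0.0352, 0.0473 and 0.0196). Without code Z the changes were 1.03, 0.59 and -0.44, and none was called (adjusted p = 0.0559, 0.103 and 0.208). Cebpb, a transcription factor that binds an Arg1 enhancer, had means of 483 ± 77.0, 559 ± 94.2 and 355 ± 27.5 TPM (SD, n = 3). It was called lower in chronic hypoxia than in standard oxygen (-0.44, adjusted p = 0.0250) and acute hypoxia (-0.64, 0.0137) with the block, and also after rescaling (0.0161 and 0.0128). With rescaling and no block it was called lower too (adjusted p = 0.0451 and 0.0477). It shares 16.7% of its 75-base stretches with another listed gene. Chronic hypoxia had the lowest mean of Cebpb and the highest of Arg1, and the part of Cebpb in the Arg1 values was not tested. Stat6, which transmits the IL-4 signal, lay between 105 and 133 TPM in all libraries and was not called. It was higher in both hypoxic groups than in standard oxygen in 3 of 3 codes, and the groups overlapped. Irf4 was at or under 0.031 TPM. Klf4 was 0.679 to 1.75 TPM in standard oxygen, 2.36 to 3.89 in acute and 1.13 to 2.54 in chronic hypoxia, and was not called. Its acute libraries lay above the standard ones without overlap, as for 12.5% of all genes in either direction. In chronic hypoxia it was above standard oxygen in 3 of 3 codes, with overlap of the groups.

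Hif1a, the oxygen-regulated subunit of a hypoxia-inducible factor that is known to act on Nos2, was 40.6, 38.3 and 37.1 TPM in standard oxygen, 53.0, 54.1 and 42.7 under acute hypoxia, and 53.6, 50.5 and 52.4 TPM in chronic hypoxia. With the code block it was called higher in the chronic than in the standard group (0.42, limma adjusted p = 0.0231) and not after rescaling (0.25, 0.0876). Its protein is regulated by degradation, which these data do not measure. Epas1, which encodes the subunit of a related factor, lay between 15.8 and 29.1 TPM and was called neither without a block nor with the code block. Irf1, between 9.27 and 19.0 TPM, was not called in these fits either. Without code Z, Irf1 was called higher in chronic hypoxia than in the standard group (0.60, limma adjusted p = 0.0442) and Epas1 higher in chronic than in acute hypoxia (0.53, 0.0327).

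Among 7106 genes with a mean of at least 10 TPM, the 5 whose log2(TPM + 1) followed Arg1 most closely over the 9 libraries were Tpm3 (Pearson r = 0.986), Phf10 (0.981), Emilin2 (0.981), Epb41l2 (0.979) and Actr2 (0.976). All 5 had their lowest mean in standard oxygen and their highest in chronic hypoxia, over a much smaller range than Arg1. Tpm3, for one, had means of 323 ± 14.8, 361 ± 3.76 and 468 ± 8.83 TPM, and Emilin2 of 119 ± 6.18, 143 ± 15.5 and 264 ± 21.4 TPM (SD, n = 3). The 9 libraries fall into the 3 oxygen groups, so r here measures a shared order of groups and is a description with no test.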

How the data were processed

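Messenger RNA was sequenced from 9 libraries with TruSeq chemistry as paired ends of 75 bases, per the labels' protocols. Per the submitters' processing notes FastQC, STAR, featureCounts and GRCm38 were used; versions, the annotation, strandedness and the TPM calculation are not given in the sources used here. The authors deposited 3 tables of TPM for pairs of groups, and all 9 library columns were identical between tables. Members and gene lists were chosen with earlier results of these data known. Each comparison was fitted on its 6 libraries with limma 3.58.1 (R 4.3.3; lmFit, eBayes with trend, two-sided) on log2(TPM + 1), for genes with a mean of at least 1 TPM, with Benjamini-Hochberg adjustment over all genes tested and a threshold of 0.05. Fold changes on this scale understate changes of low genes.

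Code X marks replicate 1 throughout, Y acute 2, chronic 2 and standard 3, and Z acute 3, chronic 3 and standard 2. Deviations from group means correlated by 0.378 to 0.633 between libraries of the same code (9 pairs), so the code was taken to pair libraries. Title numbers (-0.515 to 0.633) were not. Pairs of code X with code Y were not compared. Since code Z stood apart in every group, these correlations need not mean that X and Y are rightly paired. All members were named. Other pathway genes were named if called with or without the code block; regulators were given, except for an item that is not reported here. Gch1, Gchfr, Oaz1, Mat2a and Csf3r were named outside this rule, after their values were seen. So were the other single cell type markers, Mertk and Ctsk among them. An exact permutation test of 3 against 3 cannot go below 0.1 and was not used. The alternatives were other pseudocounts (0.1, 5), filters (none, 5 TPM), no trend, rescaling, quantile normalization, all 9 libraries in 1 fit, both blocks, and left-out libraries. GENCODE M21, RefSeq tables and 75-base stretches gave positions, promoters and shared sequence.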

Additional observations from a re-analysis of the deposited data

How the results depend on the processing

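The count of called members other than Arg1 was 0 in each comparison without a block, and stayed 0 with other pseudocounts, filters, no trend, rescaling alone, quantile normalization and all 9 libraries in 1 unblocked fit. The title number as a replicate block gave 0, 0 and 1 for acute against standard oxygen, chronic hypoxia against standard oxygen and chronic against acute hypoxia, where in the last it pairs libraries as the code does. In the same order the code block gave 2, 0 and 1, the code block with rescaling 1, 3 and 3, the code block over all 9 libraries 2, 4 and 4, and the fit without code Z 2, 3 and 2. The shares of all genes called were 0.71%, 18.4% and 15.5% with the code block, 0.492%, 11.5% and 9.79% with rescaling added, 1.84%, 26.3% and 22.1% over all 9 libraries, and 2.95%, 21.1% and 16.3% without code Z. Leaving out 1 library at a time gave 0, 0 to 1, and 0. Of the 3 called in chronic hypoxia without code Z, 1 was higher, and of the 4 called over all 9 libraries 3 were higher against standard oxygen and 2 against acute hypoxia. Over all genes, calls with the code block in chronic hypoxia against standard oxygen were 1674 higher and 365 lower, and 613 and 657 after rescaling. In chronic against acute hypoxia they were 1345 and 379, and 524 and 560 after rescaling.

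Of 453 alternative values for single members other than Arg1, 396 kept their direction and side of the threshold, 29 passed it where the reported fit did not, and 28 changed sign, none of these with a call. Changes of sign in acute against standard oxygen came without code Z for Azin1 (-0.0987). In chronic hypoxia against standard oxygen one came without code Z for Slc7a2 (-0.0128). In chronic against acute hypoxia they came for Slc7a2 with rescaling, with or without the code block (-0.0739), quantile normalization (-0.102) and without code Z (-0.162), and for Sat1 with rescaling, with or without the block (-0.149), and quantile normalization (-0.115). Leaving out 1 library at a time moved the change in acute against standard oxygen from -0.236 to 0.254 for Azin1, -0.0270 to 0.154 for Ass1, -0.248 to 0.114 for Srm and -0.172 to 0.0335 for Sms. In chronic hypoxia against standard oxygen it ranged from -0.111 to 0.590 for Slc7a2 and -0.291 to 0.00829 for Odc1. In chronic against acute hypoxia it ranged from -0.425 to 0.305 for Slc7a2, -0.0797 to 0.162 for Sat1, -1.54 to 0.705 for Nos2 and -0.511 to 0.0292 for Azin1. Of 56 alternative values for Arg1, 50 moved by less than the replicate spread, and the 6 others came from the pseudocounts (for chronic hypoxia 7.71 and 4.77 against standard oxygen, 5.25 and 4.12 against acute). The cause of these changes was not tested. TPM gives no depth, so counting error could not be set against any value.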
